A study of Mus musculus with 2 samples.

Results

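Of the 11895 windows of 200 kb into which mouse chromosomes 1 to 19 were divided, 276 held no DNase I hypersensitive peak in either of 2 cerebral cortex libraries. These 276 windows, 2.32% of the total and 55.2 of 2379 Mb, are described here. They were chosen by measured values: a window counted where both peak lists had 0 peaks overlapping it. The tiling started at position 0 of each chromosome on the mm10 build and left out windows with over 10% unknown (N) bases or within the first 3 Mb. DNase-seq maps DNA that the enzyme DNase I can cut because nucleosomes do not cover it. Left cerebral cortex was taken from female B6CASTF1/J mice, a first-generation cross that carries a C57BL/6 and a CAST genome, aged 18 to 20 months. There was 1 group and no treatment, with 2 libraries numbered as biological replicates 1 and 2. Both libraries carry 1 donor identifier in the labels, which leave it unstated whether separate animals were used, so the spread between them may be technical.

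Accessible sites mark promoters and enhancers that are in use in at least part of the cells of a tissue. Stretches without them include gene deserts, which are often held at the nuclear lamina, and clusters of genes that work in other organs, such as odorant and pheromone receptors, each of which is active in few sensory neurons. Many such clusters grew by tandem duplication, so that a short read from them can match several places in the genome. Library 1 had 132054 peaks and library 2 had 139799, and the median window held 9 and 10 of them. As a check of the tissue, 6 of 6 excitatory neuron markers and 3 of 3 pan-neuronal markers had a peak within 500 bases of a start in both libraries. The same held for 3 of 4 astrocyte markers, 1 of 2 oligodendrocyte markers, 0 of 3 microglia markers and 0 of 7 markers of other tissues, and none of these genes starts in the 276 windows.

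Sequences from these windows show what they hold. The promoters below are RefSeq sequences on GRCm38.p6, from 250 bases before to 50 bases after a gene's start, in the direction of the gene. The first pair, of 2 pheromone receptor genes, is the most alike of its run of such windows when letters are compared without gaps. Vmn1r135 (chr7:21832101-21832400, plus strand) and Vmn1r137 (chr7:21994337-21994636, plus strand) had equal letters at 296 of 300 positions, or 98.7%. Letters were compared position by position, so an inserted or lost base lowers the count even for near-identical sequences. On this count the median over the 55 promoter pairs of that run was 45%. Pairs were not aligned, so this median does not show how alike most of them are. Capitals mark the 4 positions that differ.
Vmn1r135: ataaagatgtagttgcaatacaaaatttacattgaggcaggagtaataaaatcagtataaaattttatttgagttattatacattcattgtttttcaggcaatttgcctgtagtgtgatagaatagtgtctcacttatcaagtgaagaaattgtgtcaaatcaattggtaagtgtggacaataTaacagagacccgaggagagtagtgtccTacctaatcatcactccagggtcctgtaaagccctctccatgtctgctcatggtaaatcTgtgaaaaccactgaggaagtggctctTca
Vmn1r137: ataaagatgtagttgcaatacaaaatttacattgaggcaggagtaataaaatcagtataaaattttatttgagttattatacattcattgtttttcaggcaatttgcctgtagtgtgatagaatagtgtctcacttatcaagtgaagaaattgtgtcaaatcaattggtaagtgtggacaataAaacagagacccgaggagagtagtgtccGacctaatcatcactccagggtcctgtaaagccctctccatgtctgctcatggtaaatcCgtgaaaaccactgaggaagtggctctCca

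The second pair belongs to 2 lectin-like receptor genes of natural killer cells, Klrc3 (chr6:129643239-129643538, minus strand) and Klrc2 (chr6:129660507-129660806, minus strand). They had equal letters at 289 of 300 positions, 96.3%, and capitals mark the 11 that differ. The capitals near the start of both come from the same letters shifted by a single base, since no gaps were allowed. This pair is also the most alike of its run on this count, where the median over 91 promoter pairs, likewise not aligned, was 26.3%.
Klrc3: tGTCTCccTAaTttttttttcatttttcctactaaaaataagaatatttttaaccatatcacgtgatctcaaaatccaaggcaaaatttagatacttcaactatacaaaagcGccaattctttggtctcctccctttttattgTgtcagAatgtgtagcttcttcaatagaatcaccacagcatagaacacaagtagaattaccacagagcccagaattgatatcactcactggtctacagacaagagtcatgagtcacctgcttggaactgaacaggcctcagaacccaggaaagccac
Klrc2: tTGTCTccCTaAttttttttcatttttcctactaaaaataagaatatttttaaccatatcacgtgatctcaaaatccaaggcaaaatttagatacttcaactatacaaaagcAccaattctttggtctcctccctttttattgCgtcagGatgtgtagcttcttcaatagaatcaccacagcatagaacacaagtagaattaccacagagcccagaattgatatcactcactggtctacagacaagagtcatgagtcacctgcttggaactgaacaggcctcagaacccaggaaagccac

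The next promoters show base composition, with CpG dinucleotides in capitals. Olfr1287 (chr2:111448892-111449191, plus strand), an odorant receptor gene, has a GC content of 28.7%, below the median of 38.3% for promoters in these windows, and 1 CpG, which is the median there. Slco1a4 (chr6:141856171-141856470, minus strand), chosen after its values were seen, encodes an organic anion transporter known from brain endothelium and has 1 CpG. Entpd4b (chr14:69555151-69555450, plus strand), a copy of the nucleotidase gene Entpd4, has 33 CpGs and a GC content of 67%.
Olfr1287: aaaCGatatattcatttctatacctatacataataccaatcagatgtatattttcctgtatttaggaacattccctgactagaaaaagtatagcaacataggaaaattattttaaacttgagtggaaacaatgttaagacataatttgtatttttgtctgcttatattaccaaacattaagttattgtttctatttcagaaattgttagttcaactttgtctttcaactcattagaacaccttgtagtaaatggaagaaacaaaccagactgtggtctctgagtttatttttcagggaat
Slco1a4: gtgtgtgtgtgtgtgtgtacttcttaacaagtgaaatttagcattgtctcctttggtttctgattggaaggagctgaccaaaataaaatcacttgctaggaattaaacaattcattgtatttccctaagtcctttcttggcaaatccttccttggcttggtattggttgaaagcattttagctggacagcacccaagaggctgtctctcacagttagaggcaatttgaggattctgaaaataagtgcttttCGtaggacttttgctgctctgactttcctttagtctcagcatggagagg
Entpd4b: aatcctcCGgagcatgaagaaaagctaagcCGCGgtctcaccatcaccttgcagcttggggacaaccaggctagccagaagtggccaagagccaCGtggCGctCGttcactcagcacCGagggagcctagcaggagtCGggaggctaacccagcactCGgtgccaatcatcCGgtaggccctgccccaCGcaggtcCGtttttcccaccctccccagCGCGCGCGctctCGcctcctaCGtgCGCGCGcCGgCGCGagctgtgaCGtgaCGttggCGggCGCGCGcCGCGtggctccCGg

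The rule was met in each library separately by more windows than in both. Library 1 had 474 windows without a peak (3.98%) and library 2 had 547 (4.60%). Of the 474 windows chosen in library 1, 276 also had no peak in library 2, or 58.2%, against 4.60% of all windows. Of the 547 chosen in library 2, 276 had none in library 1, or 50.5%, against 3.98% of all windows. A window chosen in 1 library was therefore empty in the other far more often than an average window, and still had peaks there in about as many cases as not. With 2 libraries of 1 group there is no test of this difference.

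**Figure D1:**
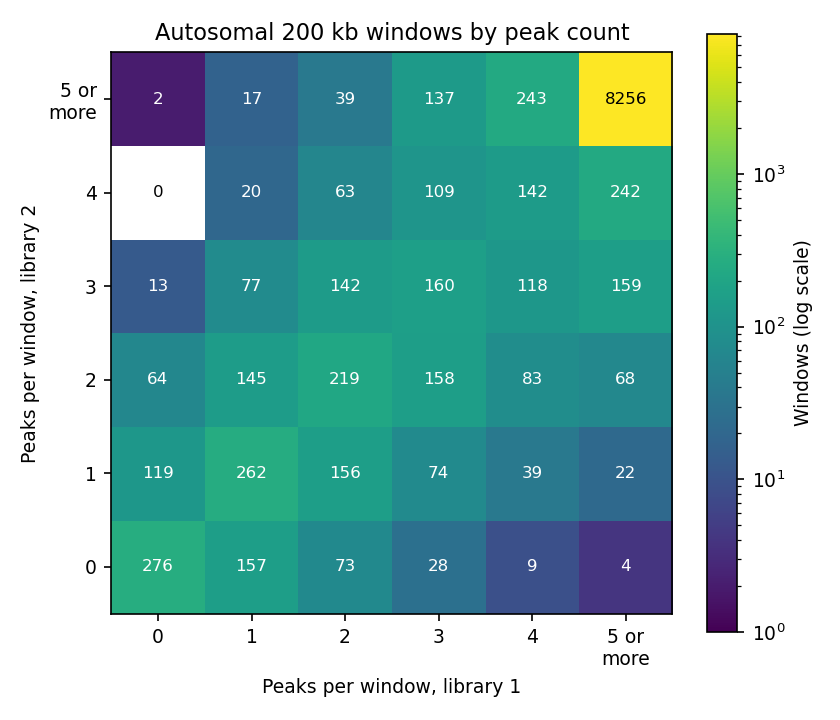
Number of 200 kb windows by their peak count in library 1 (horizontal) and library 2 (vertical), with counts of 5 or more joined and the colour on a log scale. The 276 windows described here are the lower left cell, and 8256 windows had 5 or more peaks in both libraries.

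Windows that were empty in 1 library had mostly weak peaks in the other. In the 198 windows that were empty in library 1 alone, library 2 had 317 peaks with a median signal of 0.185, against 0.641 over all its peaks. In the 271 windows that were empty in library 2 alone, library 1 had 443 peaks with a median signal of 0.197, against 0.64. These medians lie at percentiles 1.57 and 1.62 of each library's own peaks. The signal is the authors' value per peak, without a stated normalization.

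Just outside the rule were windows with exactly 1 peak over both libraries, which were also 276 in number, 119 with the peak in library 2 and 157 in library 1. The signal of that peak ran from 0.0802 to 0.469 in library 2, with a median of 0.166, and from 0.0544 to 0.544 in library 1, with a median of 0.184. It was narrower than most peaks, with a median width of 106 bases in library 2 and 109 in library 1 against 200 over all peaks. In another 262 windows each library had 1 peak, and in 150 of these, 57.3%, both peaks overlapped. Windows with 1 peak had a median GC content of 37.3% and were poorer in genes, 68.1% of them without a protein-coding start against 55.4% of the windows without a peak. Single weak peaks thus set the edge of the group. Of the windows empty in library 1, 2 had 5 or more peaks in library 2. The window chr3:17400001-17600000 had 6 peaks and 886 listed bases in library 2, and 34 listed bases in library 1. The window chr12:33800001-34000000 had 25 peaks and 6034 listed bases in library 2, and it holds the starts of Twist1 and Ferd3l, which encode bHLH transcription factors of embryonic development. For library 1 the files read here hold no peak, footprint or listed base in it, and whether that is a measured lack of cutting or a lack of rows cannot be told from them. The windows on either side of it had 6 and 9 peaks in library 1 and 3 and 6 in library 2.

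In sequence, the windows without a peak were poor in GC and CpG and rich in repeats. Their median GC content was 37.9%, with a range of 35.2% to 48%, against 41.6% in the 11619 windows with a peak and 37.3% in the windows with exactly 1 peak. The ratio of observed to expected CpG had a median of 0.143 against 0.183 with a peak and 0.142 with exactly 1. There were 5.19 CpGs per kb against 8.02 with a peak and 4.99 with exactly 1. Repeat-masked bases made up a median of 49.4% against 31.3% and 47.5%. The windows without a peak were thus close to those with 1 peak in these measures. Recurrence was measured on the reference as the share of sampled 31-base stretches, 1 in every 1000 bases, that occur more than once in the assembly. Its median was 29.5% in the windows without a peak, 24.5% in those with exactly 1 and 12% in those with a peak.

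**Figure D2:**
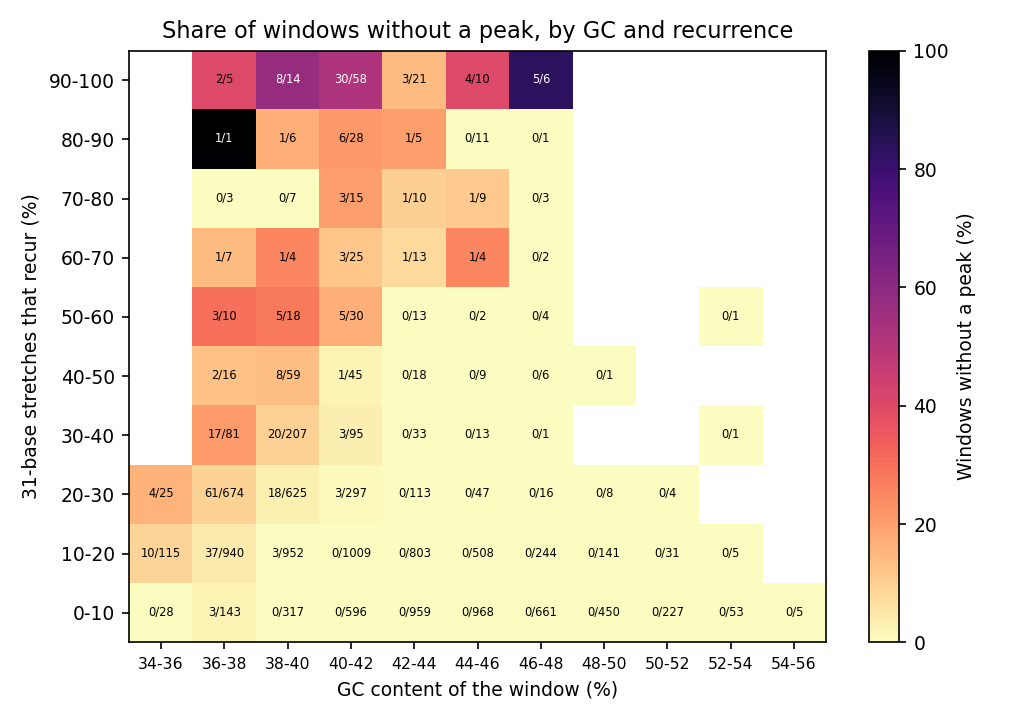
Share of windows without a peak (colour, percent) by GC content of the window (horizontal, percent) and share of 31-base stretches that recur in the assembly (vertical, percent), with windows without a peak and all windows printed in each cell. Windows without a peak lie at low GC content when few stretches recur, and up to 48% GC when nearly all do.

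Recurrence and GC content each moved with the lack of peaks. Of windows with under 20% of stretches recurring, 53 of 9155 had no peak, or 0.579%. The share was 5.72% (137 of 2394) at 20% to 50% and 24.9% (86 of 346) at 50% or more. At 90% or more it was 45.6%, 52 of 114. Both libraries gave this order alone, with 1.15%, 10.5% and 33.8% in library 1 and 1.63%, 12.1% and 31.5% in library 2. Of the windows chosen in library 1, 73.5% were empty again in library 2 where 50% or more recurred. The share was 54.4% at 20% to 50% and 50.5% under 20%. For windows chosen in library 2 and read in library 1 the shares were 78.9%, 47.4% and 35.6%. Over all windows of the class, the shares in the library read were 31.5% and 33.8% at 50% or more and only 1.63% and 1.15% under 20%. The treatment of reads that match several places is not stated in the labels or files read here, and the part of read placement in these counts was not tested.

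GC content separated the windows where recurrence was low. All 53 windows with under 20% recurrence and no peak had a GC content under 39%. Below that limit 53 of 1844 windows (2.87%) had no peak, and at or above it 0 of 7311. At 20% to 50% recurrence the shares were 9.14% below 39% GC and 1.65% above. At 50% or more they were 35.4% (17 of 48) and 23.2% (69 of 298), so in these windows the lack of peaks was not confined to GC contents under 39%.

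By content, all 276 windows were put into 3 kinds, which were set after the values were seen. In 86 windows at least 50% of stretches recurred. Another 63 had less recurrence and the start of at least 1 protein-coding gene or antigen receptor segment, and 127 had less recurrence and no such start. The first kind had a median GC content of 40.7%, a median recurrence of 96% and 7 gene starts per window. The second had 38.1%, 29.5% and 8 gene starts. The third had 36.8%, 22% and 1 gene start, none of them protein-coding. In windows with peaks the same 3 kinds had median GC contents of 41.4%, 43.4% and 39.2%.

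**Figure D3:**
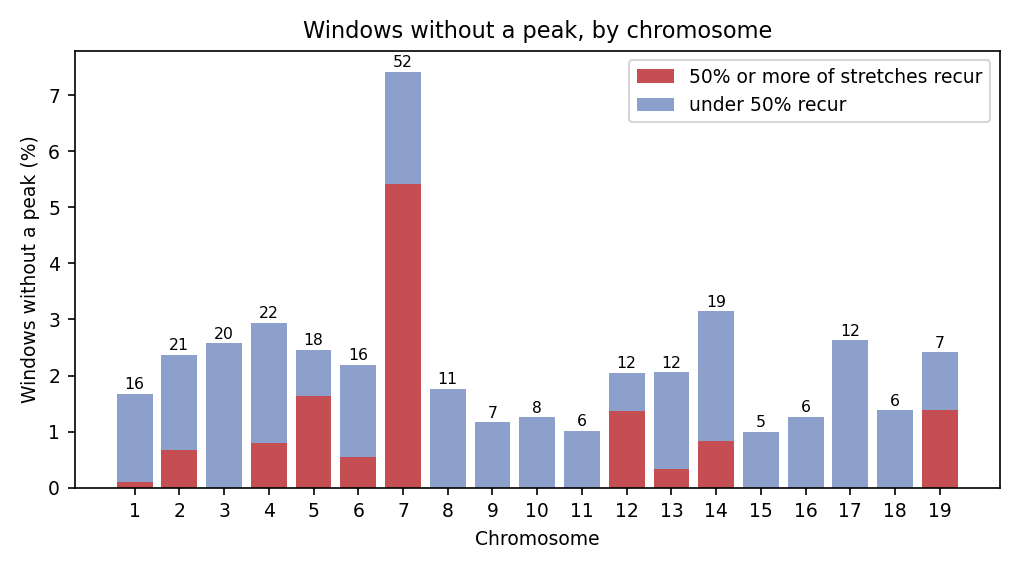
Share of tiled windows without a peak on each chromosome (percent), split into windows where 50% or more of 31-base stretches recur and the rest, with the number of windows without a peak above each bar. Chromosome 7 stands highest with 52 windows, 38 of them of the recurrent kind.

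The windows were spread over all 19 autosomes. Chromosome 7 had 52 of its 701 windows in the set, 7.42%, and 38 of these 52 were of the recurrent kind. The other chromosomes ranged from 1% on chromosome 15 (5 of 499) and 1.01% on chromosome 11 (6 of 592) to 3.15% on chromosome 14 (19 of 604). On chromosomes 3, 8, 9, 10, 11, 15, 16, 17 and 18 none of the windows without a peak was of the recurrent kind.

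Genes were not absent from these windows, but their kind differed from the rest of the genome. In GENCODE M21, 1268 annotated genes start in them, 2.5% of the 50643 that start in tiled windows. Protein-coding genes account for 466 of 20589 starts, 2.26%, close to the windows' own share of 2.32%. Unprocessed pseudogenes, the remains of duplicated genes, were more frequent, with 279 of 1732 starts (16.1%), and immunoglobulin variable segments gave 36 of 218 (16.5%). Processed pseudogenes gave 278 of 8821 (3.15%). Long intergenic RNAs (45 of 5162, 0.872%) and antisense RNAs (8 of 2889, 0.277%) were rarer. The most crowded windows were chr19:13400001-13600000 with 21 gene starts, 8 of them Olfr genes, and chr12:114600001-114800000 with 20, 12 of them immunoglobulin segments. They were followed by chr7:11800001-12000000 and chr2:87800001-88000000 with 19 each, the first with 3 Vmn1r and the second with 13 Olfr genes. The next, with 15, was chr6:69400001-69600000, 1 of several tied windows, with 6 immunoglobulin segments.

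Sensory receptor genes were the largest group. Of 1526 such genes, 275 start in windows without a peak (18%), against 0.766% of protein-coding genes in no listed family (133 of 17367). Families go by GENCODE symbol, and 98 of these 133 have symbols of the form Gm and a number. Some of the 133 may thus belong to listed families. Olfr genes, the odorant receptors of the nose, gave 190 of 1128 (16.8%), in 27 windows. In library 1 alone the count was 302 and in library 2 alone 253. The 190 lay on chromosome 2 (90 starts), chromosome 9 (31), chromosome 7 (24), chromosome 19 (17) and 4 others. Of these 190 starts, 185 are in windows with under 50% recurrence and 25 in windows with under 20%. Of all 152 windows with at least 3 Olfr starts, 26 had no peak (17.1%), and the median such window had 2 peaks in each library, against 9 and 10 over all windows. Most such windows thus had a few peaks.

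The vomeronasal receptors, which detect pheromones, were split by recurrence differently. Vmn1r genes gave 48 of 205 starts (23.4%), on chromosomes 7 and 17, with 10 of the 48 in windows with under 50% recurrence, and 78 in library 1 alone and 69 in library 2 alone. These counts go by GENCODE symbol and may be too low. The RefSeq promoter table names Vmn1r241, Vmn1r256 and Vmn1r259 in these windows, symbols that are not among those counted. Vmn2r genes gave 33 of 118 (28%), of which 14 had under 50% recurrence, and 19 of the 33 lie on chromosome 7. No start of either family was in a window with under 20% recurrence. Of 51 windows with at least 3 vomeronasal receptor starts, 12 had no peak (23.5%). The taste receptors Tas2r (35 genes) and the trace amine receptors Taar (15 genes) had no start in the set.

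**Figure D4:**
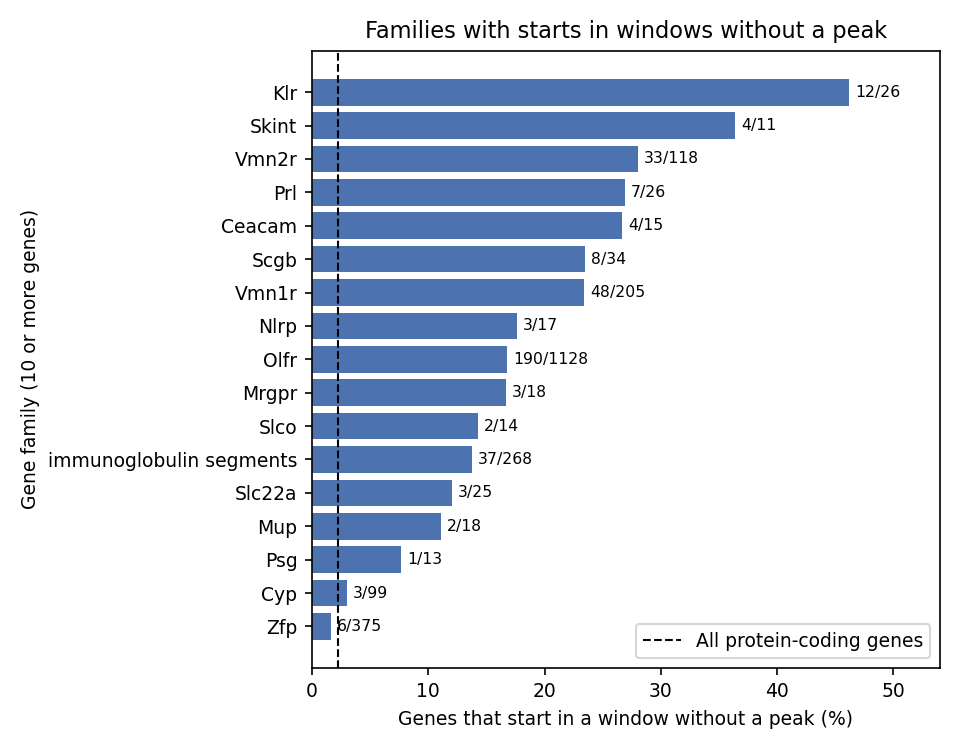
Percent of genes of each family that start in a window without a peak, for families of at least 10 genes with any such start, with the counts beside the bars and all protein-coding genes as the dashed line at 2.26%. Families are taken by gene symbol. Klr stands highest with 12 of 26, and Zfp lies below the line with 6 of 375.

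Among genes of defence, the Klr genes of natural killer cells gave 12 of 26 (46.2%), the highest share of the families with at least 10 genes when both libraries are required. That order is not kept with 1 library: in library 1 alone Klr genes gave 12 and the Prl genes described below 17, also of 26, and in library 2 alone Klr gave 16 and Prl 7. The 12 starts lie in 3 windows of chromosome 6 with under 50% recurrence. Immunoglobulin segments gave 37 of 268 (13.8%), with 61 in library 1 alone, 41 in library 2 alone and 20 with the tiling shifted by 100 kb. Of the 37, 25 lie on chromosome 12, which carries the heavy chain locus, and 12 lie on chromosome 6, which carries the kappa locus. T cell receptor segments gave 0 of 226. Over the 16 defence families the count was 52 of 803, 6.48%.

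Of the 4 listed families of secreted proteins, 2 had starts in the set, 10 of 79 genes in all. Scgb genes, the secretoglobins found in glandular secretions, gave 8 of 34 (23.5%), all on chromosome 7 and all in windows with 50% or more recurrence. In library 1 alone there were 16 Scgb starts and in library 2 alone 8. The Mup genes gave the other 2, of 18, while Esp (15 genes) and Obp and Lcn (12 genes) gave 0. In other groups, Prl genes, hormones related to prolactin that are made in the placenta, gave 7 of 26 (26.9%), with 17 in library 1 alone and 7 in library 2 alone. Ceacam genes gave 4 of 15 (26.7%), and Skint genes, which act on T cells of the skin, gave 4 of 11 (36.4%). Genes with a Zfp symbol had many members and few in the set, 6 of 375 or 1.6%, below the 2.26% of all protein-coding genes. Zinc finger genes under other symbols are not counted. Whether the Gm genes beside Zfp968 on chromosome 2, such as Gm14391 and Gm14440, are of this kind was not tested. Of 70 families listed, 19 had any start in windows without a peak, by GENCODE symbol. Genes with Gm symbols count in no family, so more families may be present.

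Families that serve neurons were not among them. Of 344 autosomal genes in 16 neuron families, such as Cdh and Pcdh (95), Kcn (91), axon guidance genes (46), glutamate receptors (25) and Gabr (16), 0 start in a window without a peak. The share was 2.26% over all protein-coding genes and 0.766% over those in no listed family, so few starts would be looked for. Listed families outside this group also had none, such as Trim (68 genes), Krtap (57), Krt (53) and Defb (42). The lack of starts is thus not particular to neuron families. The 276 windows that hold such a start, equal in number by coincidence, had a median of 15 peaks in library 1 and 17 in library 2. The axon guidance receptor gene Robo2 was the 1 gene of these lists to overlap the set, with 108 of its 520 kb in a window without a peak and 17 and 13 peaks in the rest of it. The lists take families by symbol and leave out single genes such as Dcc, an axon guidance receptor gene described below.

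Genes without a listed family lay mostly in duplicated sequence. Of the 133 such protein-coding starts, 103 are in windows with 50% or more recurrence, and 98 have provisional symbols of the form Gm and a number. The longest that lie wholly within the set were Gm3005 (166 kb), Ccdc7b (117 kb), Gm4788 (83.6 kb), Gm5155 (47.2 kb) and AA792892 (45.3 kb), with 0 peaks in both libraries. Next were Gm3259, Gm6205, Gm6367, Gm14296 and Gm28363, between 38 and 30.3 kb, then Entpd4b, Gm49352, D5Ertd577e, Gm3373 and Smr2, between 30.1 and 22.5 kb. Smr2 encodes a protein of the submaxillary gland.

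Promoters in these windows held few CpGs. Of the 1268 genes, 392 were found in the RefSeq promoter table, among them 354 of the 466 protein-coding genes. The table lists 533 promoters within the windows, of which 132 (24.8%) have no CpG and 24 (4.5%) have at least 10. Over all 31077 promoters of tiled windows these shares were 5.22% and 44%, and the median number of CpGs was 1 against 7. Olfr promoters within the set had a median GC content of 33.3% and those outside 35.7%, with no CpG in 34% and 33.8%. The letters TATAAA, on either strand, were present in 34.9% of the promoters in the set and in 13.6% of all promoters of the same length. These groups were not matched for base composition, with a median GC content of 38.3% in the set and 53% over all promoters. The part of composition in this difference was not tested. Within families the share went both ways: 49.4% of Olfr promoters in the set against 39.5% of other Olfr promoters, 63% against 38% for Vmn1r, and 12.9% against 26.2% for Vmn2r.

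The 24 CpG-rich promoters are the exception, and most lie in duplicated sequence. Of these, 19 are in windows with 50% or more recurrence, and the median recurrence of their windows is 98.2%. For 15 of the 24, the same 300 bases occur elsewhere on chromosomes 1 to 19. Some of these copies lie in the 276 windows themselves, where the rule allows no peak. For 9 of the 15 at least 1 copy lies outside the set, and 0 of these 9 had a peak in either library on such a copy. The share of all CpG-rich promoters with a peak was not set beside this count. The Entpd4b promoter printed above, with 33 CpGs, is 1 of them: its letters stand a second time at the start of Entpd4, which had no peak there either. Tmem254c (23 CpGs) shares its promoter letter for letter with Tmem254a and Tmem254b, and Plac9b (18 CpGs) with Plac9a and with Gm9780, which is itself in the set. The 9 promoters are thus not all separate sequences. Both Plac9b and Gm9780 are counted among them, and so is LOC115488278, whose promoter overlaps that of Entpd4b. In contrast, Rpl10l, a ribosomal protein gene copied from an RNA and known from testis, has 13 CpGs in a window with 15% recurrence and no identical copy. It is not alone in this: Gm46244 has 18 CpGs at 20% recurrence and no identical copy. Promoters of Gm40862, Gm3973 and Gm9257, with 41, 32 and 29 CpGs, also have none, in windows with 63.5% to 93.5% recurrence. The promoters of this paragraph were chosen by CpG number after the values were seen.

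The 276 windows form 209 runs of adjoining windows. Of these, 165 are single windows, 33 are pairs, 6 have 3 windows, 1 has 4, 3 have 5 and 1 has 8. The distance between the peaks on either side, taken from both libraries together, had a median of 367 kb and was at least 208 kb. The 378 windows next to a run were themselves poor in peaks, with a median of 2 in each library. The 11 runs of 3 or more windows hold 45 of the 276 windows and are described in turn, the 6 of equal length included.

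**Figure D5:**
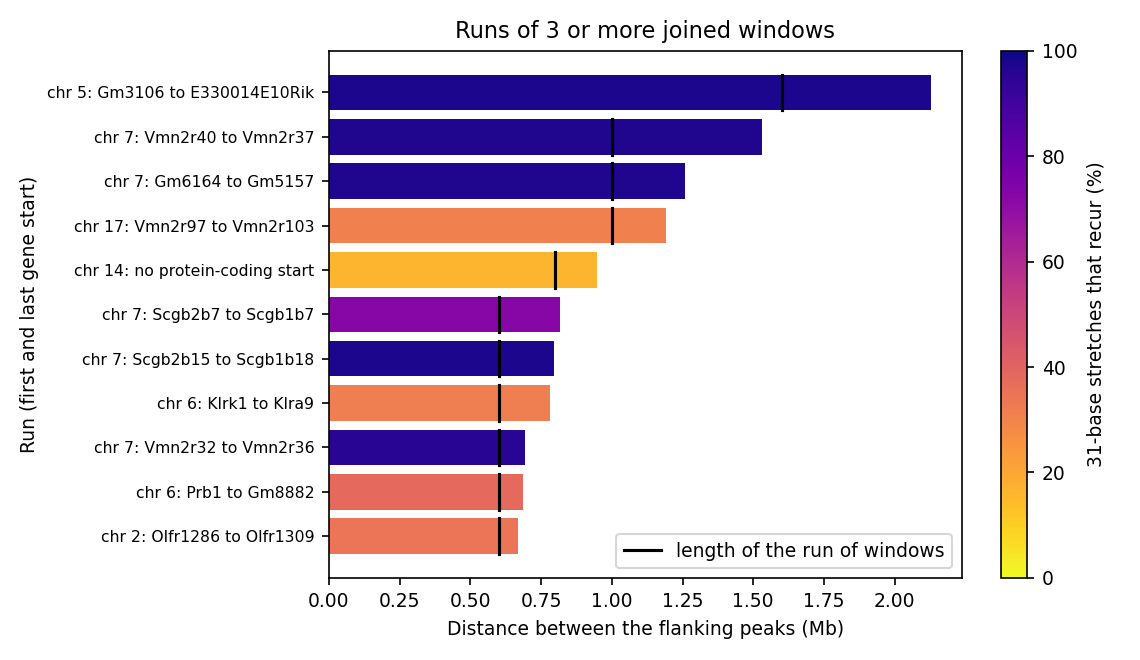
Distance between the peaks that flank each run of 3 or more windows (bars, Mb), with the length of the run itself as a black line and the share of recurring 31-base stretches as colour. The chromosome 5 run is the longest at 2.13 Mb between peaks, and the chromosome 14 run without a protein-coding start has the lowest recurrence, 16.6%.

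The longest run, chr5:94200001-95800000, lies in a stretch of 2.13 Mb without a peak, from 93684933 to 95810960. Its mean recurrence is 97.6%, and the same stretch holds a further single window of the set, chr5:93800001-94000000, with 98%. It holds 34 gene starts, of which 21 are protein-coding, such as Gm3106, AA792892, Gm6205, Gm3183, Gm7982, D5Ertd577e and E330014E10Rik. By GENCODE symbol none of them belongs to a listed family. The RefSeq promoter table names Pramel45 among the promoters here, so Pramel genes may be among them. The next coding gene after the run, 157 kb on, is the chemokine gene Cxcl13.

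Chromosome 7 has 5 of the 11 runs, and all 5 hold receptor or secretoglobin clusters. The run chr7:8600001-9600000 has 96.9% recurrence, 24 pseudogene starts and 4 coding starts, Vmn2r37 to Vmn2r40. The run chr7:20200001-21200000 has 97.1% recurrence and 29 coding starts, 18 of them with Vmn1r symbols, from Vmn1r100 to Vmn1r123. Its other coding starts have Gm symbols. The RefSeq promoter table also names Vmn1r241 in this run, so more of them may be receptor genes. The run chr7:7400001-8000000 holds Vmn2r32 to Vmn2r36 at 95.7% recurrence. The other runs, chr7:31400001-32000000 and chr7:32600001-33200000, hold 2 and 6 secretoglobin genes, among them Scgb2b7 and Scgb1b7 in the first and Scgb2b15 and Scgb1b15 in the second, with 72.5% and 97.7% recurrence. Each has more pseudogene than coding starts, 22 and 24.

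Other long runs were less recurrent. The run chr17:18800001-19800000 holds 7 receptor genes, Vmn2r97 to Vmn2r103, with a recurrence of 31.2% and 1.19 Mb between its flanking peaks. The run chr6:129600001-130200000 lies in the natural killer gene complex, with 14 coding starts of which 12 are Klr genes, from Klrk1 to Klra9, at 32% recurrence. A coding gene of the same family, Klrd1, lies 1.23 kb before it. The run chr6:131800001-132400000 holds 3 coding genes, Prb1, Prpmp5 and Gm8882, the first of which encodes a proline-rich protein of saliva. The bitter taste receptor gene Tas2r114 lies 110 kb before this run. The run chr2:111400001-112000000 holds 20 Olfr genes, from Olfr1286 to Olfr1309, at 34.5% recurrence.

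The run chr14:89400001-90200000 was of another kind, a desert. No protein-coding gene starts in its 4 windows, recurrence is 16.6% and GC content 35.8%. The flanking peaks lie 0.947 Mb apart. The nearest coding genes are the protocadherin genes Pcdh20, 929 kb before it, and Pcdh9, 2813 kb after it. Distances are to the nearer edge of each gene, whatever its strand. Library 1 had 23 listed bases in it and library 2 had 0.

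Windows without coding or receptor segment starts and with under 50% recurrence, 127 in the set, lay far from genes. A protein-coding gene body overlapped 12 of them, 9.45%, against 37.2% of the 4913 windows of the same kind with peaks. The median distance to the nearest coding gene was 530 kb against 59.3 kb, and 51.2% lay over 500 kb away against 14.2%. Within this kind the windows without a peak also had lower GC content, 36.8% against 39.2%, and more masked bases, 45.4% against 34.3%.

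Some long genes crossed windows without a peak while having peaks elsewhere. In all, 494 protein-coding genes overlap the set, 444 lie wholly within it and 28 start outside it. Naaladl2, 1346 kb long, overlapped 2 windows with 400 kb in total and had 15 peaks in library 1 and 20 in library 2 over its length. Dcc, which encodes the netrin receptor of growing axons, had 200 of 1097 kb in 1 window and 26 and 21 peaks. Dpp10, a partner of potassium channels, had 200 of 724 kb in 1 window and 19 and 21 peaks. Galnt13 (12 and 7 peaks), Fstl5 (9 and 8) and Mgat4c (11 and 8) likewise had about 200 kb each in 1 window. These stretches lie within genes that start outside the set. In contrast, Cnbd1 (262 kb), Gm3383 (200 kb) and Cphx3 (153 kb) reached beyond the set and had 0 peaks over their whole length in both libraries. Gm16867, of 140 kb, had 1 peak in each library. Gm14288 and Zscan4f, a gene of the early embryo, each span the border between 2 such windows.

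The windows were also nearly free of single bases with significant cutting. The authors' per-base table lists bases with a false discovery rate under 0.05. Library 1 had 2093 such bases in the set, in 119 stretches within 85 of the 276 windows (30.8%), and library 2 had 1676 bases in 112 stretches within 77 windows (27.9%). This is 37.9 and 30.4 bases per Mb, against 16630 and 18844 in windows with peaks and 412 and 289 in windows with exactly 1 peak. The table and the peaks come from the same reads, so the low number follows from the choice of the windows and is no separate evidence. No window of the set had a footprint in either library.

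The listed stretches were short and weak beside those that touch a peak. Their median length was 15 bases in library 1 and 12 in library 2, with a longest of 49 and 47, while stretches that touch a peak had medians of 158 and 151 bases. Outside peaks in all other windows the medians were 5 and 4 bases. The lowest false discovery rate in the set was 0.0125 in library 1 and 0.011 in library 2, and 0 bases were under 0.01. Outside peaks in other windows, too, only 379 of 67547 stretches in library 1 and 436 of 76359 in library 2 had a rate under 0.01. The median of each stretch's lowest rate was 0.0405 and 0.0426 in the set, against 0.0433 and 0.044 there. Weak stretches were thus not particular to the set. The windows with the most listed bases over both libraries were chr14:107200001-107400000 with 77 in library 1 and 29 in library 2, and chr14:107000001-107200000 beside it with 95 and 0. They were followed by chr1:17200001-17400000 (78 and 0), chr18:72400001-72600000 (43 and 30) and chr5:88000001-88200000 (45 and 28), which holds the salivary genes Smr3a and Smr2. The next were chr12:115200001-115400000 (62 and 9), chr7:103200001-103400000 (0 and 67), chr1:113000001-113200000 (36 and 30), chr10:55200001-55400000 (17 and 47) and chr17:92000001-92200000 (0 and 63). In 4 of these 10 windows a library with over 60 listed bases stood against a library with 0.

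Few of these stretches were shared between libraries. Listed bases were present in both libraries in 32 windows, in 1 library in 98 and in neither in 146. They were present in 22 of the 86 windows of the recurrent kind, 35 of the 63 with genes and 73 of the 127 without. Stretches of both libraries overlapped at 2 places only. The first is in a window without a coding gene on chromosome 10, where library 1 listed 55300328 to 55300344 with a lowest rate of 0.0284 and library 2 listed 55300338 to 55300381 with 0.011. The second is on chromosome 14, where library 1 listed 107340347 to 107340393 with 0.0198 and library 2 listed 107340373 to 107340381 with 0.0414.

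Both places are printed from the GRCm38 genome, plus strand, since they are the sites in the 276 windows where both libraries had significant cutting and neither list has a peak. Capitals mark the 7 and 9 bases listed in both. The first, chr10:55300280-55300429, has a GC content of 46% in a window of 36.5%, and the second, chr14:107340295-107340444, has 48% in a window of 36.3%.
Chromosome 10 site: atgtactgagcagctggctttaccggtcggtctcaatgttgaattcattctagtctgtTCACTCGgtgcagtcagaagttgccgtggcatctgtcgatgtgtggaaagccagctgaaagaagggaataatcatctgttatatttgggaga
Chromosome 14 site: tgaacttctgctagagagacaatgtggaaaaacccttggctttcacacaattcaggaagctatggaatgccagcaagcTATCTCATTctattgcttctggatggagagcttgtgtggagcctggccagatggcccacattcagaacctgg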

How the data were processed

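DNase-seq peaks, footprints and per-base tables of 2 libraries were read as deposited, on the mm10 build, each made by the authors from the alignments of its own library, per the deposited readme. The labels and readmes name no aligner, peak caller or setting. Peak signal is the authors' value per peak, with no normalization stated. As deposited, the per-base tables list q-values (false discovery rates) under 0.05, and the footprint lists give 1 q-value throughout. The longer of the 2 peak lists per library chose the windows, and any overlap counted.

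Base composition, masking and recurrence were read from the 66 sequences of the primary GRCm38 assembly. Genes are those of GENCODE M21, placed by their start. Families were taken by symbol. The members and lists were chosen with earlier results of these data known. The text names the longest runs, the 8 families with the most starts and the 5 of at least 10 genes with the highest share, the 15 longest unlisted genes inside, the 15 that overlap most windows, and the 10 and 5 windows with the most listed bases and gene starts. Other genes were named after their values were seen. Alternatives were the shorter list, each library alone, windows of 100 and 500 kb, a tiling shifted by 100 kb, at most 1% N, peaks counted by midpoint, windows with under 20% recurrence, whole gene bodies, and limits of 0.01 and 0.001. Window counting was tested on simulated data. Python 3.11.15, numpy 2.4.6, pandas 2.3.3, scipy 1.17.1 and numba 0.67.0 were used, with matplotlib 3.10.9 for figures.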

Additional observations from a re-analysis of the deposited data

How the results depend on the processing

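With 1 group of 2 libraries, no value carries a test, and windows of 1 chromosome are not replicates. A tiling shifted by 100 kb gave 279 windows, at most 1% N gave 272 and peaks by midpoint 276, all close to the 276 reported. The shorter peak list gave 1132 windows (9.52%), of which 70.3% had no protein-coding start, with a median GC content of 37.6%, a longest run of 2.4 Mb and 1225 coding starts. Windows of 100 kb gave 1776 (7.44%), 74% without a coding start and 1028 coding starts. Windows of 500 kb gave 17 (0.358%), 23.5% without a coding start, a median GC content of 38.3%, a longest run of 1.5 Mb and 96 coding starts. Windows with under 20% recurrence gave 53 (0.579%), 90.6% without a coding start, with a median GC content of 36.4%, a longest run of 0.8 Mb and 28 coding starts, so most genes in the set lie in windows with more recurrence. With the shifted tiling the longest run was 1.4 Mb. With 1 library left out the ranges were 474 to 547 windows, 3.98% to 4.6%, 58.6% to 65.6% without a coding start, 37.6% to 37.7% GC, a longest run of 1.6 Mb and 692 to 741 coding starts. At limits of 0.01 and 0.001 the listed bases fell from 2093 and 1676 to 0 in both libraries. Counts by family were less stable: library 1 alone moved Olfr from 190 to 302, Vmn1r from 48 to 78, Scgb from 8 to 16, Prl from 7 to 17 and immunoglobulin segments from 37 to 61, and the shifted tiling moved immunoglobulin segments to 20. The shorter list gave 24 Prl and 16 Klr starts. Of the 80 values by family and setting, or as a share of coding starts, 38 moved by more than the spread or 1.5 times.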

Other observations

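Slco1a4 and Slco1a1, neighbouring organic anion transporter genes of chromosome 6, lie wholly in windows without a peak that have 16% recurrence, so that few of their stretches recur in the assembly. Slco1a4 is known from brain endothelium. Both genes were chosen after their values were seen. In bulk tissue a site used in few cells and a closed site cannot be told apart.

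Other families with few genes were also met in the windows. Akr1c genes, enzymes of steroid metabolism, gave 3 of 9 starts, and Nlrp genes, several of which are known from oocytes, gave 3 of 17. The placental cathepsin genes Ctsm and Cts3 share a window of chromosome 13 with 36% recurrence. On chromosome 4 a run chr4:42000001-42400000 with 100% recurrence holds Ccl21b, a chemokine gene of lymphoid tissue with several copies.

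The window of Twist1 and Ferd3l had 31 footprints in library 2. Windows empty in library 2 with 5 peaks in library 1 were found on chromosomes 2, 8, 12 and 17, with 942, 1187, 666 and 844 listed bases in library 1, and none of them holds a protein-coding start.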
